A study of Rattus norvegicus with 16 samples.

Results

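Lymphocyte marker genes were followed in the liver of rats with and without adrenal glands. The set holds 9 genes out of 22587 gene symbols in the deposited table, chosen by symbol as genes of T cells, natural killer (NK) cells, B cells and plasma cells: Cd8a, Nkg7, Prf1, Cd3e, Cd3g, Cd2, Cd79b, Jchain and Ptprc. All 9 symbols were found. The study measured liver mRNA of male Wistar-Wyoto rats aged 13 weeks in 16 libraries, 4 per group, after an exposure of 4 hours. The groups were sham-operated rats in air (SHAM air, libraries 1 to 4), sham-operated rats in ozone at 0.8 ppm (SHAM ozone, 17 to 20), rats without adrenal glands after total bilateral adrenalectomy in air (ADREX air, 65 to 68) and the same surgery with ozone at 0.8 ppm (ADREX ozone, 81 to 84). Every rat had therefore had surgery. Groups follow the sample titles, since the treatment label gives ozone for the 4 libraries whose titles read ADREX air. The labels do not name hormone replacement or flushing of blood from the liver, nor say that the libraries of a group are separate animals. If they are not, p-values measure only the spread between these libraries.

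The liver holds a resident population of lymphocytes, rich in NK cells and CD8 T cells, that sits in the sinusoids and mixes with blood lymphocytes. The adrenal cortex makes glucocorticoids, steroid hormones that move lymphocytes out of blood and kill immature lymphocytes through the glucocorticoid receptor. T cells recognise antigen with a receptor that signals through the CD3 chains, B cells signal through CD79 chains, and cytotoxic cells kill targets with perforin and granzymes. In bulk tissue, fewer cells of a type and less RNA per cell cannot be told apart.

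Upstream sequences of 3 cytotoxic lymphocyte genes are shown because these genes differed between the surgery groups under ozone. RefSeq promoter entries (rat build GRCr8, which is not the rn6 build named in the submitters' processing notes) were found for 8 of the 9 genes, Cd79b being the exception. Each sequence is the 250 bases before the transcription start, 5′ to 3′ on the gene's strand, and lies outside the transcript. Capitals mark matches on either strand to GGAAGT (a core of ETS factors), TGTGGT (a core of RUNX factors) or CAGCTG (an E-box), and the 2 adjoining matches in Prf1 read as 1 capital run.
Prf1, chr20:29788790-29789039, plus strand: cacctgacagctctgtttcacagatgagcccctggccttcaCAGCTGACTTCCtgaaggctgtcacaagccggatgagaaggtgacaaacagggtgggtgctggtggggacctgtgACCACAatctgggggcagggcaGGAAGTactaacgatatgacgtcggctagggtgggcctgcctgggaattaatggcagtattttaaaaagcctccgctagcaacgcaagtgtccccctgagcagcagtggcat
Nkg7, chr1:102981247-102981496, plus strand: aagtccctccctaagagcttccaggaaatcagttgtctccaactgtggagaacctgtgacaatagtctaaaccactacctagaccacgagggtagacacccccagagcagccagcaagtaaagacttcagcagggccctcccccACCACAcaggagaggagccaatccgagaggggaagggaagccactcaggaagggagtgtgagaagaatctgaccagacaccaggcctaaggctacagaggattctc
Cd8a, chr4:104923866-104924115, plus strand: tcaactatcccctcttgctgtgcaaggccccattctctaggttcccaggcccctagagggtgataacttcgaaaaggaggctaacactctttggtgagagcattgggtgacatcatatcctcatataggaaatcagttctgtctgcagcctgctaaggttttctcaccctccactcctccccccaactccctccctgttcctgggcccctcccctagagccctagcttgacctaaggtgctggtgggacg
Of the 8 upstream windows, 3 held the ETS core, 3 held the RUNX core and 3 held the E-box. Among 33469 windows of the same length, the shares were 19.2%, 14.5% and 11.97%. The palindromic glucocorticoid response element was in 0 of the 8 and in 12 of all windows (0.0359%), ATGCAAAT (an octamer) in 0 of the 8 and 1.56% of all, and TATAAA in 0 of the 8 and 12.9% of all. These are matches of letters in short windows, not binding sites.

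Recovered reads per library ranged from 8372891 to 14096246, and 3 reads, the limit that a count of 0 allows, equalled 3.14 to 6.02 normalized counts or 0.213 to 0.358 RPM (reads per 1000000 recovered reads). Such limits cover counting error only. Values below are normalized counts, the deposited reads per gene divided by a size factor per library. Transcripts of hepatocytes dominated, with 123597 to 231060 RPM summed over 11 hepatocyte genes. Libraries also carried transcripts of neurons and myelin-forming cells in uneven amounts, which over 25 genes summed to 51.7 to 894 RPM (SHAM air), 87.6 to 3014 (SHAM ozone), 286 to 1238 (ADREX air) and 859 to 4932 (ADREX ozone). The 3 richest libraries were SHAM ozone 18 and ADREX ozone 81 and 82. Lymphocyte transcripts were scarce: the 9 genes had between 41 reads (Cd3g) and 3518 reads (Ptprc) over all libraries. Cd8a, Nkg7, Prf1, Jchain and Ptprc passed the filter on low values and were tested. Cd3e, Cd3g, Cd2 and Cd79b did not.

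Under ozone, lymphocyte genes were higher in rats without adrenal glands. All 5 tested genes, Cd8a, Nkg7, Prf1, Jchain and Ptprc, rose in ADREX ozone against SHAM ozone by 0.86 to 1.27 on the log2 scale (limma, adjusted p = 0.0079 to 0.0476, n = 4 per group). Of all 12791 genes tested, 6.04% were called higher in this comparison and 12.5% were called in either direction, and in 10.6% every ADREX library lay above every SHAM library, as it did for these 5 genes. The other 4 genes were not tested, so this count does not cover the whole set. With no filter on low values, which tested all 9, Cd8a and Ptprc were called, beside 1382 of 20381 genes in either direction. The 9 genes summed to 24.9 to 25.3 RPM in the SHAM ozone libraries and 44.9 to 64.0 in the ADREX ozone libraries. They summed to 34.3 to 43.9 RPM in SHAM air and 38.8 to 85.1 in ADREX air. Ptprc and Jchain made up most of these sums. In SHAM ozone they averaged 10.9 and 7.82 RPM of a mean sum of 25.1, and in ADREX ozone 22.97 and 14.9 of 52.7.

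**Figure D1:**
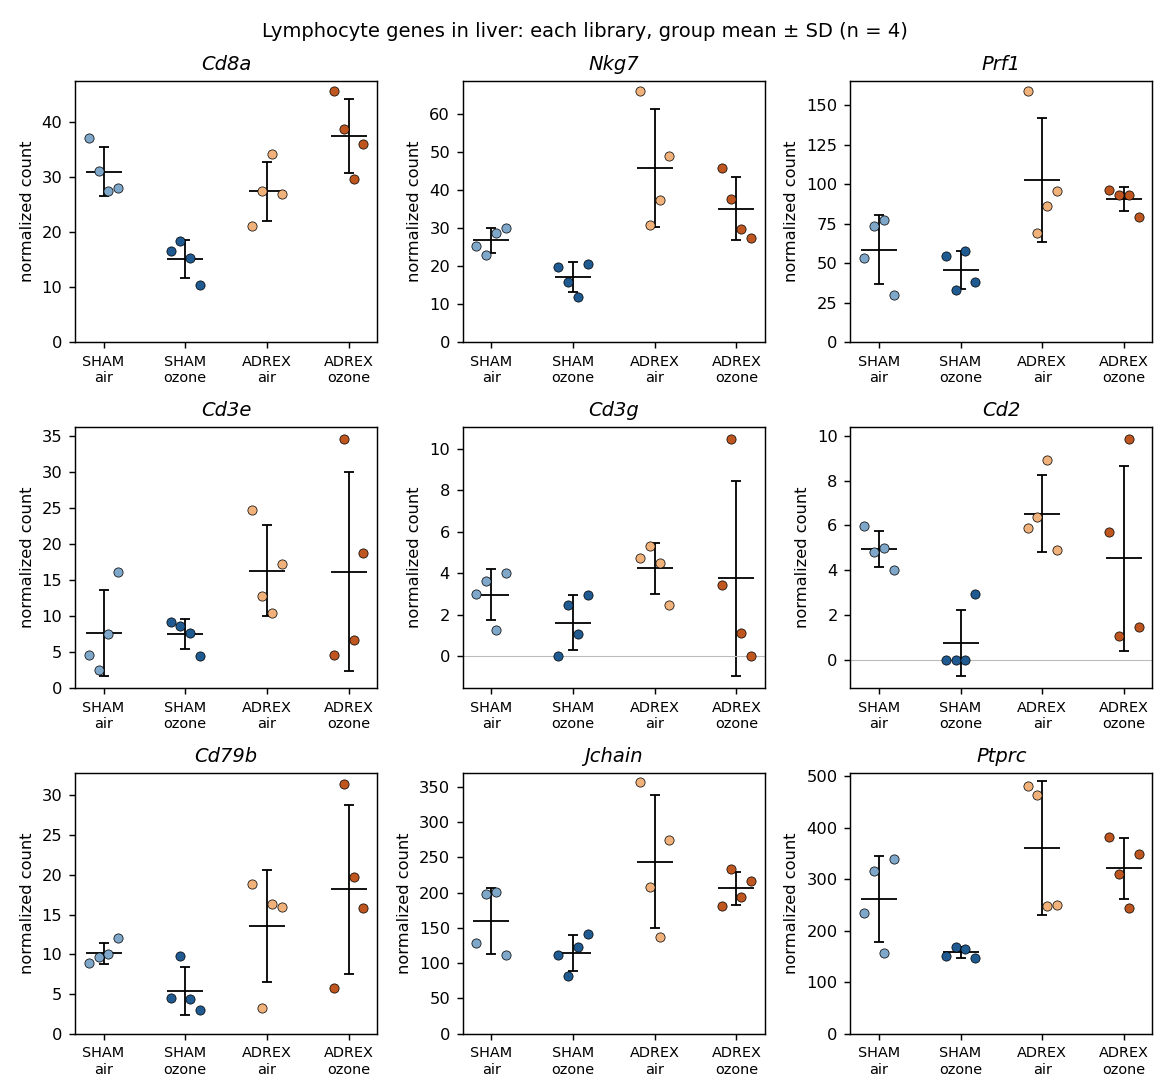
Normalized count (vertical axis, linear) of each of the 9 lymphocyte genes in each library by group, with the group mean and SD (n = 4). For Cd8a, Nkg7, Prf1, Jchain and Ptprc every ADREX ozone library lies above every SHAM ozone library, while Cd3e, Cd3g, Cd2 and Cd79b stay at or below 34.6 with overlapping groups under ozone.

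Cd8a, the alpha chain of the CD8 co-receptor on cytotoxic T cells and part of rat NK cells, had normalized counts of 37.2, 31.2, 27.5 and 28.1 in SHAM air libraries 1 to 4 and of 16.6, 18.3, 15.2 and 10.3 in SHAM ozone libraries 17 to 20. In rats without adrenal glands it had 21.2, 27.5, 34.3 and 26.9 in air libraries 65 to 68 and 45.7, 38.8, 29.6 and 36.0 in ozone libraries 81 to 84. All SHAM ozone libraries were thus the lowest of the 16, and the other 3 groups overlapped. The difference between ADREX and SHAM under ozone was 1.27 ± 0.28 (log2 ± SE, adjusted p = 0.0079). The difference between SHAM ozone and SHAM air was −1.01 ± 0.28 and missed the threshold (adjusted p = 0.0743), as did 0.44 ± 0.28 for ozone in ADREX (adjusted p = 0.432).

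Nkg7, a membrane protein of the cytotoxic granules of NK and T cells, had 25.3, 22.8, 28.8 and 30.1 in SHAM air and 19.6, 15.9, 11.97 and 20.6 in SHAM ozone. It had 65.9, 30.7, 37.2 and 48.9 in ADREX air and 45.7, 37.7, 29.6 and 27.3 in ADREX ozone. The ADREX libraries lay above the SHAM libraries in air, by a narrow margin between ADREX air 66 and SHAM air 4, and under ozone. The difference was 1.001 ± 0.30 under ozone (log2 ± SE, adjusted p = 0.037) and 0.70 ± 0.30 in air, which missed the threshold (adjusted p = 0.203). Among the 5 tested genes Nkg7 was the 1 whose libraries did not overlap between the surgery groups in air, where 4.24% of all genes tested had every ADREX library above every SHAM library.

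Prf1 encodes perforin, the pore-forming protein that lets granzymes into target cells. Its normalized counts were 53.6, 73.3, 77.5 and 30.1 in SHAM air and 54.4, 33.03, 57.7 and 38.3 in SHAM ozone. After adrenalectomy they were 159, 68.8, 86.4 and 95.4 in air, and 96.1, 93.2, 93.3 and 79.2 with ozone. The ADREX ozone libraries were close together and above all SHAM libraries, and ADREX air 65 stood highest. Group means were 45.9 ± 12.01 in SHAM ozone and 90.4 ± 7.63 in ADREX ozone (SD, n = 4; log2 0.997 ± 0.31, adjusted p = 0.0428). In air the difference of 0.81 ± 0.31 missed the threshold (adjusted p = 0.154).

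Jchain encodes the joining chain that links antibody units into polymers of IgM and IgA, and marks plasma cells. Normalized counts were 128, 198, 201 and 112 in SHAM air and 112, 81.96, 123 and 142 in SHAM ozone. They were 357, 208, 137 and 275 in ADREX air and 181, 234, 194 and 217 in ADREX ozone. Under ozone the lowest ADREX library exceeded the highest SHAM library, whereas in air the groups overlapped. The difference under ozone was 0.86 ± 0.27 (log2 ± SE, adjusted p = 0.0476), the nearest of the 5 to the threshold, and in air it was 0.57 ± 0.27 (adjusted p = 0.253).

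Ptprc encodes CD45, a phosphatase that starts antigen receptor signalling and is carried by all white blood cells, so it does not mark lymphocytes alone. It had 234, 316, 158 and 339 in SHAM air and 151, 168, 165 and 147 in SHAM ozone. The ADREX libraries had 481, 464, 247 and 251 in air and 382, 311, 244 and 350 with ozone. The SHAM ozone libraries spanned a narrow range, and ADREX air libraries 65 and 66 were the highest of all. The difference between ADREX and SHAM was 1.004 ± 0.26 under ozone (log2 ± SE, adjusted p = 0.0207) and 0.45 ± 0.26 in air (adjusted p = 0.335).

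The calls under ozone depended on the libraries included. The count of called genes was 1 without SHAM ozone 17 or 20 or ADREX ozone 81, 2 without SHAM ozone 18 or ADREX ozone 82 or 83, and 3 without SHAM air 1, SHAM ozone 19, ADREX air 68 or ADREX ozone 84. Without the 3 libraries richest in neural transcripts the 5 differences were 0.71 to 1.19 on the log2 scale with adjusted p = 0.0861 to 0.317, and 0 genes were called by limma (2 at an unadjusted p under 0.05).

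**Figure D2:**
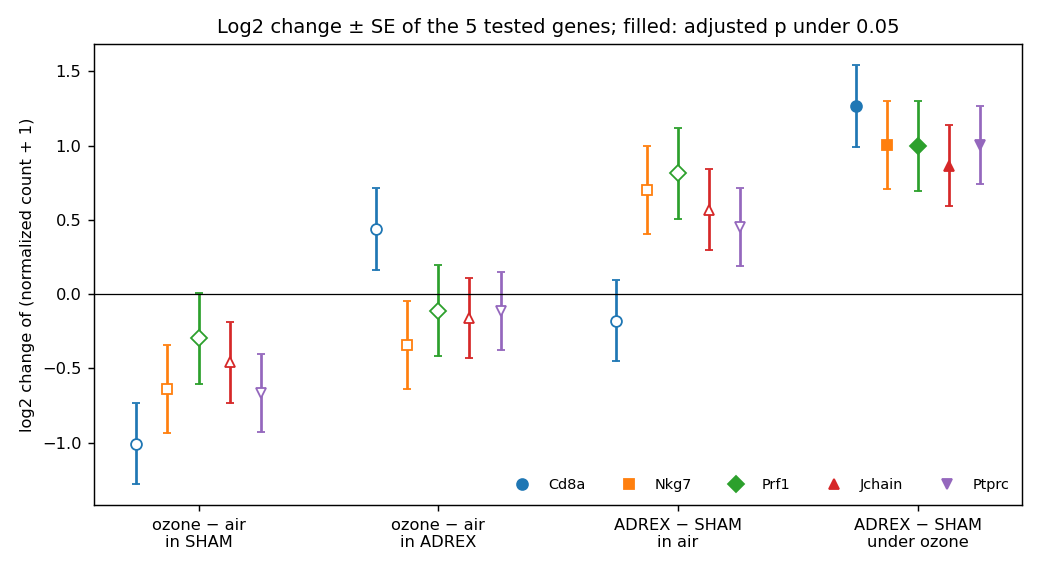
Log2 change of the normalized count plus 1 (vertical axis, ± SE) of the 5 tested lymphocyte genes in 4 comparisons (horizontal axis), with filled symbols for an adjusted p under 0.05. Filled symbols appear only for ADREX against SHAM under ozone, where the changes lie between 0.86 and 1.27.

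Averaged over air and ozone, the surgery effect was called for Nkg7, Prf1, Jchain and Ptprc. In this comparison 9.92% of all genes tested were called higher and 18.6% in either direction. Prf1 rose by 0.90 ± 0.22 (log2 ± SE, adjusted p = 0.0098), Nkg7 by 0.85 ± 0.21 (adjusted p = 0.0114), Ptprc by 0.73 ± 0.18 (adjusted p = 0.0136) and Jchain by 0.72 ± 0.19 (adjusted p = 0.0182). These 4 calls were present without any 1 library. Without the 3 libraries richest in neural transcripts 0 were called by limma (5 at an unadjusted p under 0.05). Cd8a had 0.54 ± 0.19 (adjusted p = 0.0591). In air alone 0 of the 5 were called by limma, edgeR and DESeq2, with 2 at an unadjusted limma p under 0.05. Of all genes tested, 1.49% were called higher and 20.2% had an unadjusted p under 0.05 in either direction.

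In rats with adrenal glands, all 5 tested genes had lower means with ozone than in air, with log2 differences of −1.01 to −0.30, and none passed the test. The count of calls was 0 with each of limma, edgeR and DESeq2, and 3 genes (Cd8a, Nkg7 and Ptprc) had an unadjusted limma p under 0.05. Of all genes tested, 0.633% were called lower and 18.4% had an unadjusted p under 0.05 in either direction. The libraries of Cd8a and Nkg7 did not overlap between SHAM ozone and SHAM air, and 5.93% of all genes tested had every ozone library below every air library. With array quality weights Cd8a (−1.02, adjusted p = 0.0287) and Ptprc (−0.77, adjusted p = 0.0474) were called. Those weights called 1133 of the 12791 genes tested, in either direction. In rats without adrenal glands the ozone effects on the 5 genes ranged from −0.34 to 0.44. None was called by limma, by edgeR or by DESeq2, and 0 had an unadjusted limma p under 0.05. Of all genes tested, 0.125% were called and 17.8% had an unadjusted p under 0.05.

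The test of whether the ozone effect differed between ADREX and SHAM gave 1.45 ± 0.39 for Cd8a (log2 ± SE, adjusted p = 0.152) and 0.19 to 0.55 for Prf1, Jchain, Nkg7 and Ptprc (adjusted p = 0.533 to 0.886). The 3 tools limma, edgeR and DESeq2 made 0 calls among the 5, of which Cd8a alone had an unadjusted limma p under 0.05. Limma called 0.109% of all genes, and 12.9% had an unadjusted p under 0.05. A dependence of the ozone effect on the adrenal glands was therefore not established for any tested lymphocyte gene. The comparisons under ozone and within SHAM share the SHAM ozone libraries, so their values for a gene are not independent.

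The 4 other genes fell below the filter and are given in reads. Cd3e, a CD3 chain of the T cell receptor complex, had 3, 2, 6 and 8 reads in SHAM air and 6, 7, 7 and 3 in SHAM ozone. In ADREX it had 21, 12, 7 and 14 reads in air and 4, 33, 6 and 13 with ozone. ADREX ozone 82, the library richest in neural transcripts, was the highest library for Cd3e, and also for Cd3g and Cd79b. Cd3e was compared by exact permutation tests on log2 normalized counts plus 1 (two-sided, n = 4 per group). These exact permutation tests gave p = 0.0857 for ADREX against SHAM in air and p = 0.371 under ozone.

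Cd3g, another CD3 chain, had 0 to 10 reads per library and 41 in all, and its neighbour Cd3d had at most 3 reads in any library. Cd2, an adhesion receptor of T and NK cells, had 4, 4, 4 and 2 reads in SHAM air and 0, 0, 0 and 2 in SHAM ozone. It had 5, 6, 6 and 4 reads in ADREX air and 5, 1, 9 and 1 in ADREX ozone. In normalized counts the SHAM groups did not overlap, though SHAM air 4 (4.01) and SHAM ozone 20 (2.95) each had 2 reads. Every SHAM ozone library lay below every SHAM air library in 5.93% of the genes tested, which do not include Cd2. The exact permutation p of 0.0286 for ozone against air in SHAM is the smallest that 4 against 4 libraries can give. These Cd2 reads lie near the limit that a count of 0 allows.

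Cd79b, a signalling chain of the B cell receptor, had 6, 8, 8 and 6 reads in SHAM air and 3, 8, 4 and 2 in SHAM ozone. In ADREX it had 16, 3, 11 and 13 reads in air and 5, 30, 18 and 11 with ozone. The ADREX groups were wide and each overlapped the SHAM group of the same exposure. The exact permutation p was 0.0571 for ADREX against SHAM under ozone and 0.8286 in air. In all 16 tests were run on these 4 genes and 1 had an unadjusted p under 0.05, so no difference was established. Since 4 against 4 libraries allow no smaller p, a single difference of any size could not have passed an adjustment over the 16 tests.

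Among other genes of these cell types and pathways, from 7 companion lists, every gene called for ADREX against SHAM in air or under ozone was higher in ADREX, except Cxcl13 under ozone. Genes were tested if their mean over all 16 libraries reached 14.7, so a gene low in 1 group could enter through the others. Txk and Prdm1 in SHAM air, and Gzma, Lck and Btk in SHAM ozone, averaged below 14.7. The list medians cover only genes that passed this filter. Positive differences between ADREX and SHAM were found for 54.1% of all genes tested in air and for 59.2% under ozone. Of 25 T cell genes 24 were in the table and 4 were tested, namely Cd4, Cd7, Lck and Icos, and 1 rose under ozone. Cd7, a surface glycoprotein of T and NK cells, rose from 19.3 ± 6.76 in SHAM ozone to 52.4 ± 23.7 in ADREX ozone (SD, n = 4; log2 1.37 ± 0.41, adjusted p = 0.0373). Lck, the kinase that phosphorylates CD3 chains, had 11.6 ± 2.66 and 35.9 ± 14.3 (adjusted p = 0.0511). The list's median was 0.996 on the log2 scale under ozone and 0.63 in air, where 0 were called by limma (1 at an unadjusted p under 0.05), beside 0.11 and 0.04 over all genes. In air the T cell genes with the highest means, Cd4 and Cd7, had log2 differences of 0.40 ± 0.26 and 1.07 ± 0.41. Cd4 is also carried by rat macrophages.

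Of 27 NK and cytotoxic genes 12 were tested, 2 rose under ozone and 1 rose in air. Gzma, which encodes the protease granzyme A, rose from 11.4 ± 5.59 in SHAM ozone to 33.1 ± 4.28 in ADREX ozone (log2 1.55 ± 0.44, adjusted p = 0.0297). Il2rb, the receptor chain through which NK and memory T cells sense IL-2 and IL-15, rose from 86.9 ± 27.4 to 157 ± 12.6 (log2 0.90 ± 0.25, adjusted p = 0.0264). Txk, a Tec family kinase of T and NK cells, rose in air from 10.3 ± 6.81 to 36.1 ± 6.21 (log2 1.88 ± 0.45, adjusted p = 0.0278). The list's median was 0.67 under ozone and 0.80 in air, with 10 of the 12 differences positive and 2 negative in each. Averaged over exposure 6 of the 12 rose, among them Txk, Gzma, Fcgr3a and Il2rb, and 0 fell.

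Among 21 B cell genes 9 were tested, and all 9 had positive differences in air (median 0.60) and under ozone (median 0.75). Cd74, the invariant chain of MHC class II that every antigen-presenting cell makes, rose in air by 0.79 ± 0.18 (log2 ± SE, adjusted p = 0.0199) and under ozone by 0.58 ± 0.18 (adjusted p = 0.0401). Cd37, a tetraspanin of B cells and other leukocytes, rose in air from 41.1 ± 17.7 to 95.2 ± 16.9 (adjusted p = 0.0267) and had an adjusted p of 0.0511 under ozone. The B cell genes Pax5, Fcrla and Vpreb3 had at most 3 reads in any library.

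For plasma cells 6 of 14 listed genes were tested, of which 2 rose in air and 1 under ozone. Differences were positive for 5 of the 6 in air and for 4 under ozone, beside 54.1% and 59.2% of all genes tested. Igkc, the constant region of the kappa light chain, rose from 363 ± 45.4 in SHAM ozone to 538 ± 45.1 in ADREX ozone (log2 0.57 ± 0.14, adjusted p = 0.0159) and by 0.59 ± 0.14 in air (adjusted p = 0.0288). Prdm1, which encodes the plasma cell regulator Blimp-1 and is active in other cells too, rose in air from 8.45 ± 5.60 to 37.9 ± 14.5 (adjusted p = 0.0339) and had 24.3 ± 3.36 and 18.4 ± 11.4 under ozone (adjusted p = 0.482). Reads of immunoglobulin genes can be split among near-identical copies, so their levels are uncertain.

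Of 25 genes shared by leukocytes 22 were tested. Under ozone all 22 had positive differences (median 0.71) and 8 rose, while in air 21 had positive differences (median 0.67) and 2 rose. Coro1a, an actin regulator that T cells need to survive, rose from 73.9 ± 11.4 in SHAM ozone to 155 ± 18.05 in ADREX ozone (log2 1.06 ± 0.20, adjusted p = 0.00361) and by 0.77 ± 0.20 in air (adjusted p = 0.0437). Arhgdib, a GTPase regulator of blood cells, rose under ozone by 1.08 ± 0.18 (adjusted p = 0.0016), Limd2 by 1.01 ± 0.30 (adjusted p = 0.0359) and Laptm5, a lysosomal protein that limits receptor levels, by 0.99 ± 0.23 (adjusted p = 0.0118). Rac2, the Rac GTPase of blood cells, rose in air by 1.66 ± 0.40 (adjusted p = 0.0295). With ozone in SHAM rats 1 of the 22 fell: Cytip, which regulates leukocyte adhesion, fell by 1.06 on the log2 scale (SE 0.23, adjusted p = 0.0301), from 96.6 ± 27.5 to 44.5 ± 4.62.

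Among 25 genes of antigen receptor signalling 22 were tested, of which 5 rose under ozone and 1 in air. Differences were positive for 16 of the 22 under ozone and for 18 in air. Btk, the Tec kinase of the B cell receptor pathway, rose under ozone by 1.40 ± 0.35 (log2 ± SE, adjusted p = 0.0165) and Pik3cd, the leukocyte isoform of PI3 kinase, by 0.97 ± 0.22 (adjusted p = 0.0102). Syk, the kinase recruited to CD79 chains, rose by 0.83 ± 0.22 (adjusted p = 0.0217) and Ptpn6, a phosphatase that damps receptor signals, by 0.66 ± 0.19 (adjusted p = 0.0301). Fyb, an adaptor of T cell adhesion, rose in air by 1.15 ± 0.25 (adjusted p = 0.0179). Myeloid cells also use Btk, Syk and Ptpn6.

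Of 25 homing genes, chemokines and their receptors among them, 17 were tested and 1 changed under ozone, where 6.48% of all genes tested were called lower. Differences were positive for 11 of the 17 under ozone and for 13 in air, beside 59.2% and 54.1% of all genes tested. Cxcl13, the chemokine that draws B cells into follicles, fell by 1.53 on the log2 scale (SE 0.44, adjusted p = 0.0345), from 67.5 ± 31.3 in SHAM ozone to 23.0 ± 9.49 in ADREX ozone. In air 0 were called by limma (3 at an unadjusted p under 0.05). The homing genes with the highest means there, Cxcl12 and S1pr1, had log2 differences of 0.26 ± 0.32 and −0.64 ± 0.27.

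**Figure D3:**
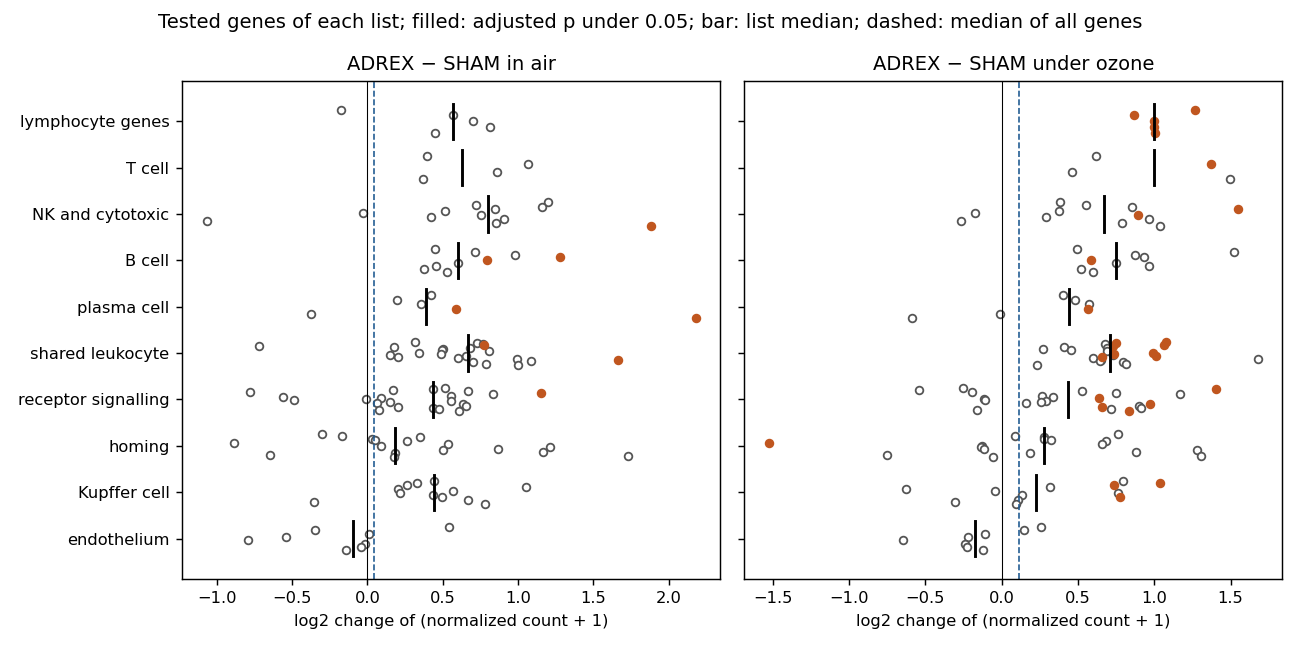
Log2 difference between ADREX and SHAM (horizontal axis) of the tested genes of each list (vertical axis), in air on the left and under ozone on the right, with filled points for an adjusted p under 0.05, a bar at the list median and a dashed line at the median of all genes tested (0.04 and 0.11). Medians of the T cell, NK, B cell and shared leukocyte lists lie between 0.60 and 0.996, and the endothelial median lies at −0.09 and −0.17. Medians of the plasma cell, receptor signalling, homing and Kupffer cell lists lie at 0.39, 0.43, 0.18 and 0.44 in air. Under ozone these 4 lie at 0.44, 0.43, 0.27 and 0.22.

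With ozone, 0 genes of the T cell, NK, B cell, plasma cell, homing and receptor signalling lists were called by limma in SHAM or in ADREX, nor in the difference of the ozone effects. The numbers tested in these lists were 4, 12, 9, 6, 17 and 22. In SHAM the counts at an unadjusted p under 0.05 were 0, 0, 1, 1, 5 and 6, beside 18.4% of all genes tested. In ADREX they were 0, 1, 0, 0, 1 and 2, beside 17.8%. For the difference they were 0, 0, 0, 1, 1 and 3, beside 12.9%.

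Genes of other cell types were compared between the surgery groups as well. All 24 tested neural genes had positive differences in air (median 1.85) and under ozone (median 2.05). Limma called 0 of them in either comparison, with 2 and 12 at an unadjusted p under 0.05, and 3 averaged over exposure (Camk2b, Stmn2 and Thy1). For comparison, 1.49% of all genes tested were called higher in air, 6.04% under ozone and 9.92% averaged over exposure. An unadjusted limma p under 0.05 was found for 20.2% of all genes tested in air and 31.2% under ozone. Of 12 tested Kupffer cell genes, of the resident liver macrophages, 3 rose under ozone (Clec4f, C1qa and C1qb) and 0 in air (4 at an unadjusted limma p under 0.05), with medians of 0.22 and 0.44. Their sum over 13 genes was 671 to 996 RPM (SHAM air), 771 to 1074 (SHAM ozone), 930.5 to 1691 (ADREX air) and 855 to 1778 (ADREX ozone). Ptprc, Cd74, Cd4 and the shared leukocyte genes are also active in these macrophages, and their part in the results was not tested. Clec4f, which marks Kupffer cells, had 2401 ± 199.8 in SHAM ozone and 4263 ± 1446 in ADREX ozone.

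Red cell and platelet genes, which stand for blood in the tissue, summed over 9 genes to 64.6 to 224 RPM (SHAM air), 109.9 to 719.6 (SHAM ozone), 54.4 to 222 (ADREX air) and 23.5 to 251 (ADREX ozone). SHAM ozone 17 was the highest, and of 6 tested genes 1 rose in ADREX under ozone (Itga2b) and 5 had negative differences. The median difference of the 6 under ozone was −1.86, and 5 of them, Itga2b included, had an unadjusted limma p under 0.05. Such a p was found for 31.2% of all genes tested under ozone, and 6.04% were called higher. The part of blood content in the lymphocyte results was not tested. Neutrophil genes summed to 2.8 to 31.0 RPM over all libraries, and Mpo, Camp, Elane and Ltf had at most 3 reads in any library. The thymocyte genes Rag1, Rag2, Dntt and Ptcra likewise had at most 3 reads. Of 8 tested endothelial genes 0 were called in air or under ozone by limma. An unadjusted limma p under 0.05 was found for 2 and 1 of them, beside 20.2% and 31.2% of all genes tested.

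**Figure D4:**
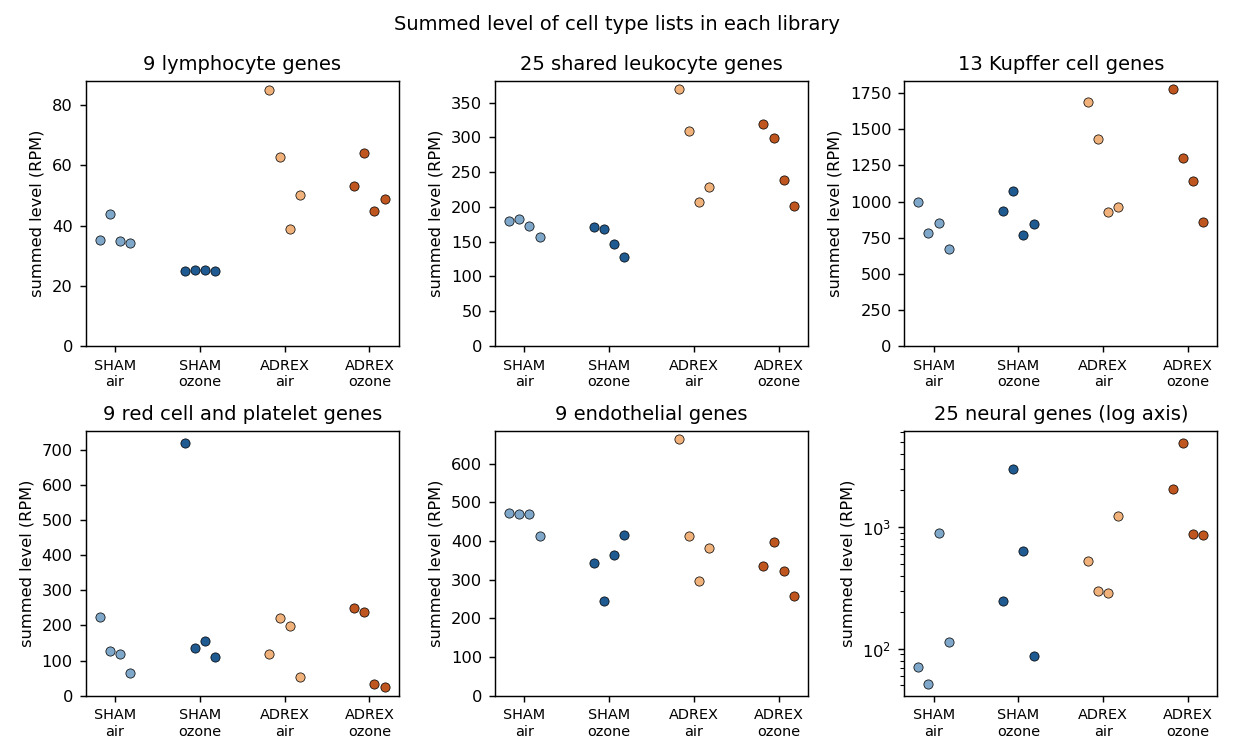
Summed level in RPM (vertical axis, linear from 0 except a log axis for neural genes) of 6 gene lists in each library by group. The SHAM ozone libraries lie at 24.9 to 25.3 for the 9 lymphocyte genes, below the other groups, while red cell and platelet genes are highest in SHAM ozone 17 and neural genes range from 51.7 to 4932. Ptprc and Jchain make up most of the sum of the 9 genes.

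Fkbp5, a chaperone gene that the glucocorticoid receptor induces, averaged 481 ± 88.8 (SHAM air), 2104 ± 693 (SHAM ozone), 325 ± 90.8 (ADREX air) and 365 ± 137 (ADREX ozone, all SD, n = 4). Of 10 glucocorticoid-induced genes 3 were lower in ADREX under ozone (Fkbp5, Zbtb16 and Dusp1) and 0 higher. In air 1 was higher in ADREX (Sgk1) and 0 lower, and averaged over exposure 3 were lower and 1 higher. Beside these, 6.48% of all genes tested were called lower under ozone and 1.49% higher in air. Averaged over exposure, 18.6% were called in either direction. The 10 genes summed to a mean of 1552 RPM (SHAM air), 2605 (SHAM ozone), 2061 (ADREX air) and 1936 (ADREX ozone), and their part in the lymphocyte results was not tested.

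The genes most like the tested lymphocyte genes were ranked by Pearson's r over the 16 libraries between their log2 level and the mean z-score of the 5, among genes with named symbols. They were Il21r (r = 0.93), Map4k1 (0.90), Rasa4 (0.89), Il2rb (0.89), Itga2b (0.89), Mcpt1 (0.89), Syk (0.88) and Lilrb3l (0.88). Spearman's rank correlation for them was 0.85 to 0.93, and r without the 2 libraries farthest from the median score, SHAM ozone 18 and 20, was 0.83 to 0.93. Deviations from the group means alone gave r = 0.16 (Rasa4) to 0.74 (Mcpt1). Il21r encodes the receptor of the lymphocyte cytokine IL-21, Map4k1 a kinase of blood cells and Mcpt1 a mast cell protease. Itga2b is 1 of the red cell and platelet genes, and myeloid cells also use Syk. Il21r averaged 10.4 (SHAM air), 4.42 (SHAM ozone), 23.01 (ADREX air) and 21.3 (ADREX ozone), an order of groups that its choice by likeness favours.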

How the data were processed

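Liver mRNA of 16 rat libraries was sequenced. Build rn6 and the tools DESeq2 and Partek are listed in the submitters' processing notes. The aligner, counter and annotation were not given in the sources used. The deposited values are a normalized signal: the authors divided read counts by 1 size factor per library. Dividing each column by its smallest value above 0 gave whole reads (100% of values within 0.01). Recovered totals were 8372891 to 14096246 reads.

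Values were analysed as log2(value + 1), which understates changes of low genes. Genes with a mean of at least 14.7 (1 in 1000000 of the median of the column totals) were kept, giving 12791 tested, including 5 of the 9 lymphocyte genes. The main test was limma-trend 3.58.1 (R 4.3.3), two-sided, with 4 group means over 16 libraries and a threshold of 0.05 on p-values adjusted across these genes by the Benjamini-Hochberg method. Adjusted p-values come from it unless another tool is named. Scripts were tested on simulated data. The low genes were compared by exact permutation tests.

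The 9 genes and all lists were chosen with earlier results of these data known. Companion lists (T cell, NK, B cell, plasma cell, shared leukocyte, homing, receptor signalling, and markers of other cells) were named by a rule: members that passed, up to 4 with the largest change, otherwise up to 2 with the highest means. Other listed genes named in the text were chosen after their values were seen. Alternatives were pseudocounts of 0.5 and 10, no or a stricter filter, TMM or median-of-ratios scaling, edgeR 4.0.16 and DESeq2 1.42.0 on recovered reads, array weights, a robust fit, fewer groups, and leaving out each library. Replicate numbers differ between groups, so none pairs libraries.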

Additional observations from a re-analysis of the deposited data

Results flagged for a closer look

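The ozone differences of Cd8a, neither of which passed the test, had opposite signs in SHAM (−1.01) and ADREX (0.44): all 4 SHAM ozone libraries were below the mean of the SHAM air libraries and all 4 ADREX ozone libraries were above the mean of the ADREX air libraries. The difference of the ozone effects was 1.45 on the log2 scale and did not pass limma's test (adjusted p = 0.152, and 0.0511 to 0.28 over the alternatives). Prf1 in ADREX ozone library 84, at 79.2 normalized counts, stood apart from the other 3 libraries of its group, which lay between 93.2 and 96.1. Cd2 in SHAM ozone library 20, at 2.95 normalized counts, was the only library of its group with reads. Of 36 groups of 4 libraries examined 2 held such a library, and chance flags about 1 in 20.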

How the results depend on the processing

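Of the 9 lymphocyte genes 5 were called for ADREX against SHAM under ozone. The count was 2 with no filter on low values, with TMM scaling, with median of ratios scaling, with edgeR on recovered reads and with a covariate for neural transcripts, and 3 with a mean of at least 5 in 1000000, which tested 3. It was 0 without the 3 libraries richest in neural transcripts, which left fewer libraries and 479 calls over all genes (2 members at an unadjusted p under 0.05), and 1 to 5 when each library was left out in turn. DESeq2 called 5. For the average over air and ozone the count of 4 became 1 with that covariate and 0 when the 3 libraries were left out, and was 4 to 5 without single libraries. For ozone in SHAM it was 2 with array quality weights, against 0, and those weights gave 1133 calls over all genes. No change that had been called reversed under these alternatives. Signs of changes near 0 did: for ozone in ADREX, leaving out single libraries gave −0.28 to 0.12 for Prf1 and −0.41 to 0.0488 for Jchain, both positive without ADREX air 65, and −0.27 to 0.0499 for Ptprc, positive without ADREX air 65 or 66 or ADREX ozone 83. For the difference of the ozone effects Prf1 had −0.025 without the 3 libraries. The causes were not tested. The 2 alternatives on neural transcripts were chosen after the data were seen. No paired analysis was possible because the groups share no replicate numbers. Depth limits Cd3e, Cd3g, Cd2 and Cd79b to 41 to 152 reads in all.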

Other observations

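Averaged over air and ozone, S100a9, a calcium-binding protein of neutrophils and monocytes, was higher in ADREX (log2 1.13 ± 0.33, adjusted p = 0.0295), with 105 ± 87.7 normalized counts in ADREX air and 29.7 ± 12.1 in SHAM air (SD, n = 4). Lyve1, a hyaluronan receptor of liver sinusoidal and lymphatic endothelium, was lower in ADREX by the same average (log2 −0.72 ± 0.18, adjusted p = 0.0136). Cxcl16, the ligand of the receptor CXCR6 on liver lymphocytes, was higher (log2 0.60 ± 0.19, adjusted p = 0.0402), and S1pr1, a receptor that guides lymphocytes out of tissue and is also abundant in endothelium, was lower (log2 −0.70 ± 0.19, adjusted p = 0.02). S100a9 was 1 of 2 neutrophil genes tested. For ADREX against SHAM, 2 of them had an unadjusted limma p under 0.05 in air, beside 20.2% of all genes tested. Under ozone 0 of the 2 did, beside 31.2% of all genes, with 1 positive and 1 negative difference. Summed neutrophil genes were highest in ADREX air 67, at 31.0 RPM, against 15.1 in ADREX air 65.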
